A study of Mus musculus with 12 samples.

Results

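Prostanoids are lipid signals made from arachidonic acid, and 10 genes of their synthesis, breakdown and reception were followed here in myeloid cells of the inflamed mouse paw. The genes were chosen by name (Pla2g4a, Ptgs1, Ptgs2, Ptges, Ptges2, Ptges3, Tbxas1, Hpgd, Ptger2 and Ptger4), and all 10 were present among the 55401 gene IDs of the deposited tables. Earlier results of these data were known when these genes and the gene lists below were chosen. RNA was sequenced from CD45+/CD11b+/Ly6G- cells that had been sorted from hind paws 4 h after injection of 1% carrageenan, a seaweed polysaccharide that provokes acute inflammation, or of sterile saline as vehicle. The groups compared were carrageenan and saline in FABP5Flox/LysM-Cre mice (LysMCre-cKO in the labels, here cKO) and carrageenan and saline in FABP5Flox mice (here Flox), all adults carrying the floxed Fabp5 allele. Each group held 3 libraries, and each library was a pool of cells from 3 or 4 mice.

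In cKO mice Cre is expressed under control of Lyz2, the lysozyme M gene, which is active in macrophages, monocytes and neutrophils. No group carried LysM-Cre without the floxed allele, so that effects of the Cre and of losing Fabp5 cannot be told apart. Fabp5 itself was still read in every cKO library, with 72 reads over the cKO carrageenan pools and 53 over the cKO saline pools, against 91 over the Flox carrageenan pools and 37 over the Flox saline pools, although the cKO libraries were deeper. Its mean was 13.6 ± 8.69 normalized counts in cKO carrageenan and 59.1 ± 34.6 in Flox carrageenan (SD, n = 3 each), and 7.15 ± 3.69 in cKO saline and 21.1 ± 14.9 in Flox saline (SD, n = 3 each). Neither difference passed the limma test over all genes (adjusted p = 0.497 after carrageenan and 0.683 after saline). The myeloid markers Itgam, Ptprc, Cd68 and Lyz2 were read in all 12 libraries, and Ly6g, the antigen sorted against, held 4 reads in all. Reads on genes ranged from 111925 in the Flox saline pool 1-3 to 2987015 in the cKO saline pool 5-8, and the geometric mean depth was 4.99 times as high in cKO as in Flox libraries. Depth and genotype therefore cannot be told apart in any comparison of cKO with Flox. One read was worth 5.55 normalized counts in the shallowest library and 0.255 to 5.55 over all libraries, and 3 reads there stood for 16.6. Because the libraries were bulk RNA, fewer cells of a type and less RNA per cell cannot be told apart.

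The pathway begins when cytosolic phospholipase A2 cuts arachidonic acid from membranes. The cyclooxygenases COX-1 (Ptgs1, largely constitutive) and COX-2 (Ptgs2, induced in inflammation) turn it into prostaglandin H2, from which terminal synthases make prostaglandin E2, thromboxane A2 and related products. Prostaglandin E2 sensitizes pain-sensing neurons and acts on myeloid cells through the receptors EP2 and EP4, both of which raise cyclic AMP, and it is inactivated by the dehydrogenase encoded by Hpgd.

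Among the 4 genes that limma passed in at least 1 comparison of carrageenan with saline, Ptgs2 and Ptges were higher and Hpgd and Tbxas1 lower after carrageenan. Their promoter windows are given because a pair of them rose and a pair fell. Each window is 300 bases, with the annotated start at base 251, and comes from RefSeq on GRCm38.p6, in which all 10 genes had a window. Capitals mark matches, on either strand, to any of 9 motifs. These were CRE (TGACGTCA), the CRE core (TGACG), C/EBP (TTGCNNAA), AP-1 (TGANTCA), Egr1 (GCGNGGGCG), E-box (CACGTG), the TATA box (TATAAA), PU.1 (GAGGAAGT) and the NF-kB consensus. The windows are Ptgs2 (ENSMUSG00000032487) at chr1:150099781-150100080 on the plus strand, Ptges (ENSMUSG00000050737) at chr2:30903248-30903547 on the minus strand, Hpgd (ENSMUSG00000031613) at chr8:56294302-56294601 on the plus strand, and Tbxas1 (ENSMUSG00000029925) at chr6:38918736-38919035 on the plus strand.
Ptgs2: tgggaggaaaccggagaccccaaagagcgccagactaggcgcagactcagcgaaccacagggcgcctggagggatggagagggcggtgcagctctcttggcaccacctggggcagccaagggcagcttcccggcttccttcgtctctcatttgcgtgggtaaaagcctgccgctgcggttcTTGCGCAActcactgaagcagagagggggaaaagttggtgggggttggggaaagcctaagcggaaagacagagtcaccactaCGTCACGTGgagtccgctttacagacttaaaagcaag
Ptges: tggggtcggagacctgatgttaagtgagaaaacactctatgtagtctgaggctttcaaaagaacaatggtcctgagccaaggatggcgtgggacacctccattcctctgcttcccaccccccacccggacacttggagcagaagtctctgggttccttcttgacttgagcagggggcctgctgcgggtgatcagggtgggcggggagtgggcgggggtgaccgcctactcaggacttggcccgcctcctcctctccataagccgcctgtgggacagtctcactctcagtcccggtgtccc
Hpgd: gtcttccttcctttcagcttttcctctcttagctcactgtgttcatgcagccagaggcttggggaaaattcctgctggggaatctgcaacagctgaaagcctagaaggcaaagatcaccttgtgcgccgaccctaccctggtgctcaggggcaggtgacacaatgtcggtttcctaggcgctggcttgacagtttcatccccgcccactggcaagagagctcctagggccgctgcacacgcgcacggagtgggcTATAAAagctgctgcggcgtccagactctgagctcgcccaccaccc
Tbxas1: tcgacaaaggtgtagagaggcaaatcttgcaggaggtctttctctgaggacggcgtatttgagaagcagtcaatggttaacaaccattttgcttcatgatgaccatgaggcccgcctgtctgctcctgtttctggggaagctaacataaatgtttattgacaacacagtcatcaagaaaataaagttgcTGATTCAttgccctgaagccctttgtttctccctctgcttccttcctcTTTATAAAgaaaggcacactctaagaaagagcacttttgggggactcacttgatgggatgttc
The Ptgs2 window holds a C/EBP match at bases 182 to 189, and a CRE core on the other strand at bases 264 to 268 that overlaps an E-box at bases 267 to 272. Of 32851 windows of the same length, 10.8% hold the C/EBP letters, 20.8% the CRE core (which is part of the full CRE, held by 1.79%) and 7.15% the E-box. The Ptges window holds none of the 9 motifs, so that the pair that rose shares no match. The Hpgd window holds TATA at bases 255 to 260. The Tbxas1 window holds AP-1 at bases 190 to 196 and TATA at bases 238 to 245, where both strands match with overlap. TATA occurs in 13.6% of windows and AP-1 in 7.81%. Over the 10 genes, CRE and Egr1 (5.55% of windows) were matched in none, PU.1 (3.20%) in Ptgs1 and NF-kB (8.46%) in Ptges3. Genes that limma did not pass also held matches: the CRE core in Ptges3, C/EBP in Ptger2, the E-box in Ptges2 and TATA in Pla2g4a. A match is a run of letters and not a bound site.

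Ptgs2 rose after carrageenan in both genotypes, as the plot of values by library shows. Levels are normalized counts, reads divided by a size factor on a scale common to all 12 libraries, and are compared here between libraries and not between genes. Ptgs2 had 237, 357 and 499 normalized counts in the cKO carrageenan pools 1-4, 5-8 and 9-12, against 27.9, 48.2 and 35.5 in the cKO saline pools of the same numbers. In Flox it stood at 422, 445 and 392 in the carrageenan pools 1-3, 4-7 and 8-10, against 38.8, 14.1 and 96.0 in the saline pools. Each carrageenan library lay above every saline library, in both genotypes, and the lowest carrageenan value was that of cKO 1-4. Ptgs2 rose 9.37-fold in cKO (log2 3.23 ± 0.50, SE, adjusted p = 0.0033, limma) and 10.8-fold in Flox (log2 3.44 ± 0.50, adjusted p = 0.0014, limma). These and later fold changes are on the log2(value + 1) scale. In limma both genotypes shared the same fit over all 12 libraries, so each SE draws on the spread in both. The call held in all 23 alternative settings in each genotype, where the log2 change was 2.97 to 3.50 in cKO and 2.76 to 4.10 in Flox. The Flox extremes came without the saline pools 4-7 and 8-10.

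**Figure D1:**
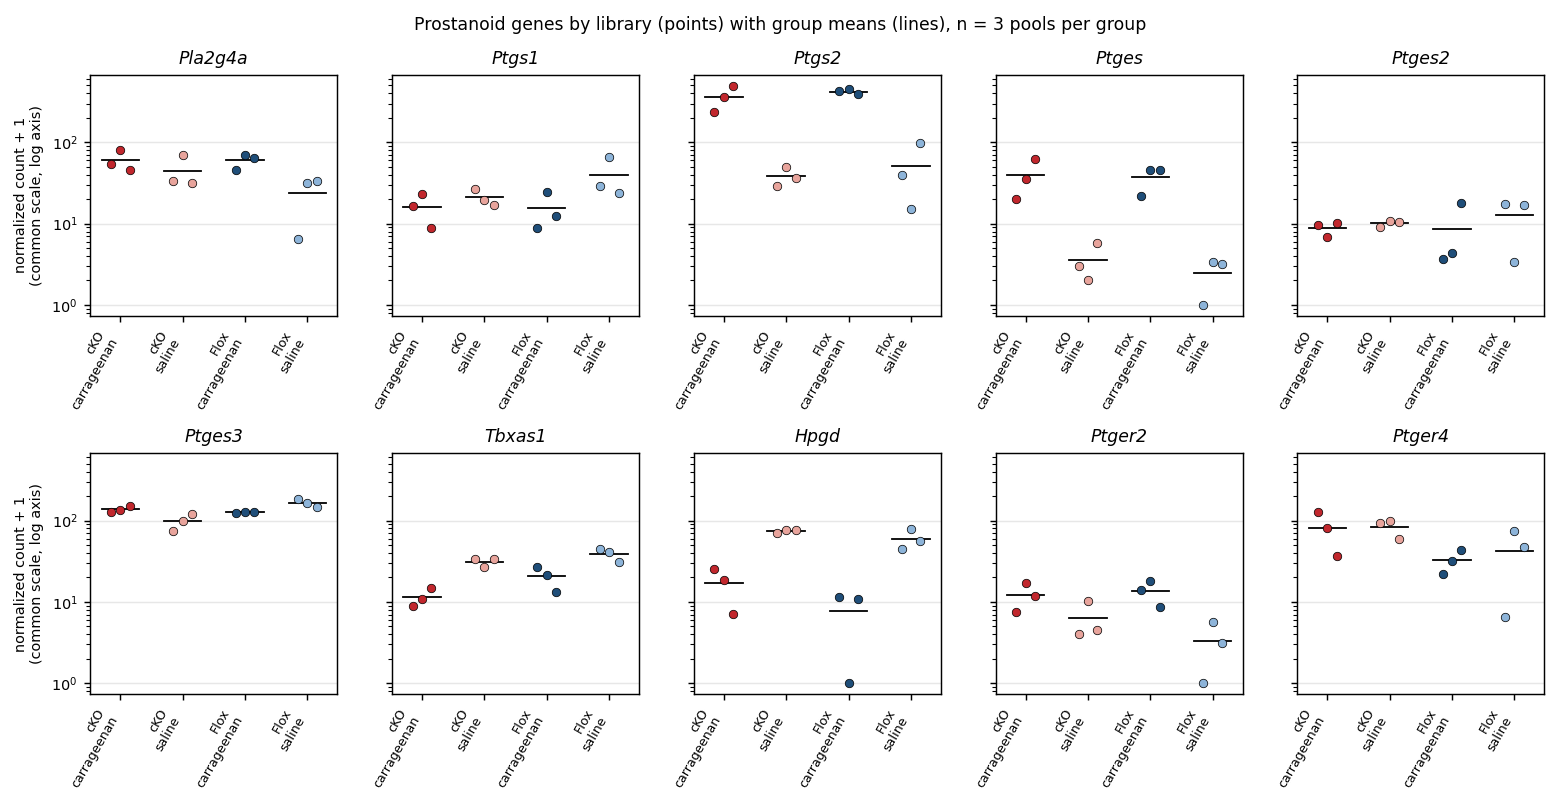
Normalized counts plus 1 (log axis, all libraries on a common scale) of the 10 genes in each library, in cKO carrageenan, cKO saline, Flox carrageenan and Flox saline; points are libraries and lines are group means (n = 3). Ptgs2 lies at 237 to 499 after carrageenan and at 14.1 to 96.0 after saline, and Hpgd at 0 to 24.6 after carrageenan and at 44.4 to 77.4 after saline.

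Ptgs1, the gene of COX-1, did not pass a test. It had 15.4, 22.2 and 7.72 normalized counts in the cKO carrageenan pools, against 25.9, 18.6 and 16.0 in cKO saline. Flox pools had 7.86, 23.8 and 11.4 after carrageenan, against 27.7, 65.7 and 22.6 after saline. The carrageenan and saline ranges overlapped in both genotypes, and the Flox saline pool 4-7 was the highest of all. Neither change passed (log2 -0.48 ± 0.57 in cKO, adjusted p = 0.967, and -1.35 ± 0.57 in Flox, adjusted p = 0.171, limma). The share of Ptgs2 among the cyclooxygenase reads of a library needs no scaling between libraries. Ptgs2 made up 93.9, 94.1 and 98.5% of the Ptgs1 and Ptgs2 reads in cKO carrageenan, against 51.9, 72.1 and 69.0% in cKO saline. In Flox it made up 98.2, 94.9 and 97.2% after carrageenan, against 58.3, 17.6 and 80.9% after saline. The saline shares of Flox pools 1-3 and 4-7 rest on 12 and 34 reads, with 95% Wilson intervals of 32.0 to 80.7% and 8.35 to 33.5%. All 6 carrageenan shares lay above all 6 saline shares. These shares rest on the same reads as the Ptgs2 and Ptgs1 values above and are not a further result. The intervals cover counting error only.

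Pla2g4a encodes cytosolic phospholipase A2, which releases arachidonic acid. It lies 138740 bases from Ptgs2 on chromosome 1 (GRCm38), on the opposite strand. It had 52.7, 80.0 and 44.8 normalized counts in the cKO carrageenan pools, against 32.0, 69.1 and 30.2 in cKO saline. Flox pools held 44.5, 68.0 and 63.8 after carrageenan, against 5.55, 30.5 and 32.4 after saline. The Flox groups did not overlap, although the lowest Flox saline value is 1 read, and the cKO groups did. The change did not pass in cKO (log2 0.49 ± 0.56, adjusted p = 0.958), in Flox (1.63 ± 0.56, adjusted p = 0.0915) or averaged over the genotypes (1.06 ± 0.39, adjusted p = 0.106, limma). The Flox value was 0.86 without the saline pool 1-3 and 2.03 without the saline pool 8-10, where it passed (adjusted p = 0.0425, limma).

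Of the terminal synthases, Ptges rose as Ptgs2 did and the other prostaglandin E synthases did not pass a test. Ptges encodes the microsomal prostaglandin E synthase mPGES-1, the inducible enzyme that works with COX-2. It had 19.1, 34.4 and 61.8 normalized counts in the cKO carrageenan pools (56, 116 and 40 reads), against 2.04, 1.02 and 4.73 in cKO saline (6, 4 and 8 reads). The Flox pools reached 21.0, 44.2 and 44.8 after carrageenan (8, 13 and 59 reads), against 0, 2.34 and 2.16 after saline (0, 1 and 2 reads). No carrageenan library overlapped with a saline library. Ptges rose by log2 3.44 ± 0.71 in cKO (10.8-fold, adjusted p = 0.0193) and by 4.02 ± 0.71 in Flox (16.3-fold, adjusted p = 0.0043, limma). On summed reads scaled by size factor the ratio was 14.5 in cKO (interval 8.96 to 25.0) and 20.5 in Flox (6.78 to 102), where counting error alone is covered. In cKO the adjusted p was 0.0938, 0.0862, 0.0832 and 0.115 without the cKO pools saline 1-4, saline 5-8, carrageenan 5-8 and carrageenan 9-12 (log2 3.38, 3.09, 3.44 and 3.03). In Flox the call held without each library in turn. Over all alternatives the log2 change was 2.42 to 3.99 in cKO and 2.64 to 4.50 in Flox, lowest with a pseudocount of 5, and in Flox it was 3.46 without the saline pool 1-3. Saline values of Ptges were all below the minimum of 5 used to admit genes, so it was tested through its carrageenan libraries. A call of Ptges was therefore likely to be up.

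Ptges2 and Ptges3 encode the other prostaglandin E synthases, of which the Ptges3 product is also the Hsp90 co-chaperone p23. Ptges2 had 8.55, 5.93 and 9.26 normalized counts in cKO carrageenan, against 8.16, 9.68 and 9.47 in cKO saline. Flox pools gave 2.62, 3.40 and 16.7 after carrageenan, against 16.6, 2.34 and 16.2 after saline, where 3 of the 6 values rest on 1 read. The ranges overlapped in both genotypes (log2 -0.20 ± 0.78 in cKO and -0.61 ± 0.78 in Flox). Ptges3 ranged from 74.5 to 183 normalized counts over all 12 libraries. It had 125, 134 and 150 normalized counts in cKO carrageenan, against 74.5, 96.8 and 120 in cKO saline, and 123, 126 and 128 in Flox carrageenan, against 183, 164 and 145 in Flox saline. The cKO carrageenan pools lay above cKO saline and the Flox carrageenan pools below Flox saline. Neither change passed (log2 0.51 ± 0.24 in cKO, adjusted p = 0.444, and -0.38 ± 0.24 in Flox, adjusted p = 0.359, limma).

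Tbxas1 encodes thromboxane A synthase, which competes with the prostaglandin E synthases for prostaglandin H2. It had 7.86, 9.78 and 13.9 normalized counts in the cKO carrageenan pools, against 32.3, 25.7 and 32.5 in cKO saline. In Flox it had 26.2, 20.4 and 12.2 after carrageenan, against 44.4, 39.9 and 30.2 after saline. Within each genotype every carrageenan library lay below every saline library. Averaged over the genotypes Tbxas1 fell by 1.22 ± 0.31 on the log2 scale (adjusted p = 0.0175, limma), and the adjusted p was 0.0565 and 0.0519 without the cKO saline pools 1-4 and 9-12. Within a genotype limma did not pass it (log2 -1.46 ± 0.44 in cKO, adjusted p = 0.111, and -0.97 ± 0.44 in Flox, adjusted p = 0.198). edgeR on the reads passed it in cKO (log2 -1.61, adjusted p = 0.0106), and limma passed it in cKO without the Flox saline pool 1-3 (adjusted p = 0.0379), the shallowest library.

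Hpgd, whose enzyme 15-hydroxyprostaglandin dehydrogenase inactivates prostaglandin E2, went the other way from Ptges. It had 24.6, 17.8 and 6.18 normalized counts in the cKO carrageenan pools, against 70.4, 75.4 and 75.7 in cKO saline. In Flox it had 10.5, 0 and 9.88 after carrageenan (4, 0 and 13 reads), against 44.4, 77.4 and 55.0 after saline. All carrageenan libraries lay below all saline libraries. In Flox, Hpgd fell by 3.55 ± 0.78 on the log2 scale (adjusted p = 0.0133, limma), and by 2.39 without the carrageenan pool 4-7 that had no read. On summed reads the Flox ratio of carrageenan to saline was 0.142 (interval 0.0795 to 0.240), where counting error alone is covered and not the spread between pools. In cKO the limma value of -2.31 ± 0.78 did not pass (adjusted p = 0.181), whereas edgeR passed it (log2 -2.06, adjusted p = 0.0012). Limma also passed it without the Flox carrageenan pool 4-7 (adjusted p = 0.0202). That omission left the cKO change at -2.31 and lowered its SE to 0.45, since the SE is shared between the genotypes. Averaged over the genotypes it fell by 2.93 ± 0.55 (adjusted p = 0.0027, limma).

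The share of the synthase Ptges among reads of Ptges and of the inactivating Hpgd is given as a description. It was higher in each of the 6 carrageenan libraries than in any saline library. This follows from the separate values of Ptges and Hpgd above and is not a further result. Ptges made up 43.8, 65.9 and 90.9% of the reads of this pair in cKO carrageenan, against 2.82, 1.33 and 5.88% in cKO saline. In Flox it made up 66.7, 100 and 81.9% after carrageenan, against 0, 2.94 and 3.77% after saline. In the cKO carrageenan pool 1-4 Hpgd still held more reads than Ptges (72 and 56). Among the cKO carrageenan pools the 95% Wilson intervals (35.5 to 52.4%, 58.6 to 72.5% and 78.8 to 96.4%) did not overlap. The Flox carrageenan pools held 12, 13 and 72 reads of the pair, so that their intervals ran from 39.1 to 86.2%, 77.2 to 100% and 71.5 to 89.1%.

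**Figure D2:**
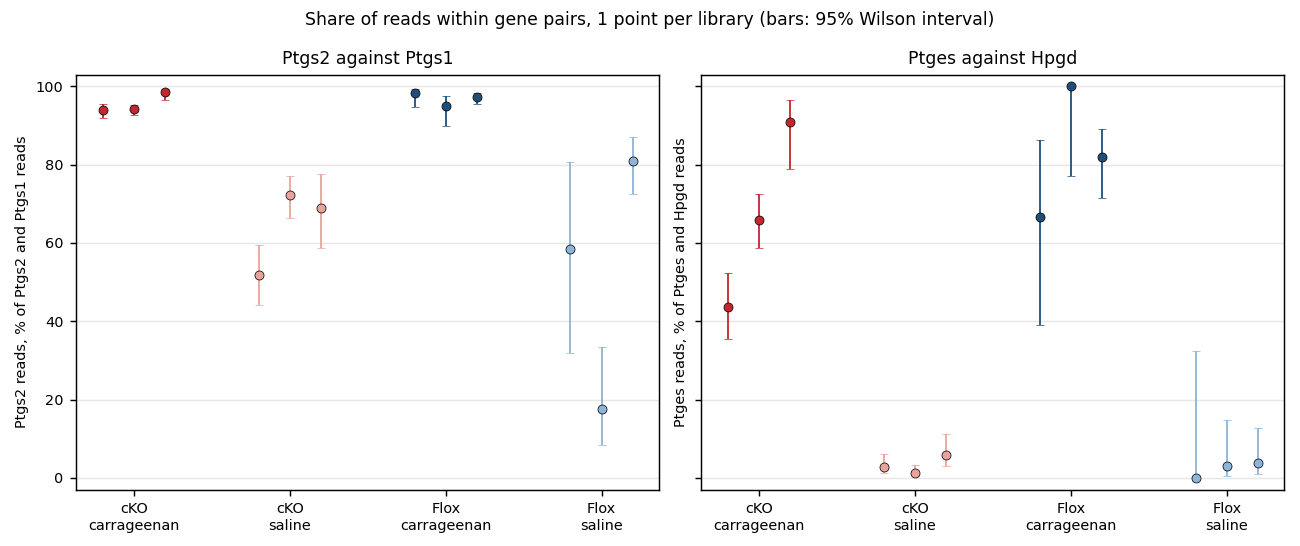
Share of reads within gene pairs in each library (percent, 1 point per library, bars 95% Wilson intervals), for Ptgs2 among Ptgs2 and Ptgs1 reads (left) and Ptges among Ptges and Hpgd reads (right), in cKO carrageenan, cKO saline, Flox carrageenan and Flox saline. Ptgs2 shares are 93.9 to 98.5% after carrageenan and 17.6 to 80.9% after saline, and Ptges shares are 43.8 to 100% after carrageenan and 0 to 5.88% after saline.

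The receptors EP2 (Ptger2) and EP4 (Ptger4) did not pass in either genotype under limma. Ptger2 had 6.50, 16.0 and 10.8 normalized counts in cKO carrageenan, against 3.06, 9.17 and 3.55 in cKO saline. Its Flox values were 13.1, 17.0 and 7.60 after carrageenan (20 reads in all), against 0, 4.69 and 2.16 after saline (4 reads). The Flox groups did not overlap and the cKO groups did. The change was log2 1.00 ± 0.75 in cKO (adjusted p = 0.843), 2.31 ± 0.75 in Flox (adjusted p = 0.0795) and 1.65 ± 0.53 averaged (adjusted p = 0.0596, limma), and the averaged value passed without the Flox saline pool 4-7 (adjusted p = 0.0322). On the reads the averaged Ptger2 change passed under DESeq2 (adjusted p = 0.0386) and voom (0.0428) and not under edgeR (0.0562). Ptger4 had 125, 79.1 and 35.5 normalized counts in cKO carrageenan, against 92.5, 98.1 and 58.6 in cKO saline. In Flox it had 21.0, 30.6 and 42.6 after carrageenan, against 5.55, 72.7 and 46.4 after saline. Its ranges overlapped in both genotypes (log2 -0.19 ± 0.71 in cKO and 0.13 ± 0.71 in Flox), and the Flox sign turned to -0.92 without the saline pool 1-3, where the gene held 1 read. Whether reads were counted by strand was not found in the labels. The 3' ends of Ptger4 and Ptger2 are covered from the opposite strand by Ttc33 (243 reads in all, against 1560 of Ptger4) and Gm17173 (7 reads, against 155 of Ptger2), and reads of these pairs may not be fully separated.

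Counted over the 10 genes, limma passed 2 in cKO (Ptgs2 and Ptges, both up), against 2.65% of 10240 genes tested in that comparison. It passed 3 in Flox (Ptgs2 and Ptges up, Hpgd down), against 7.17% of the genes. Averaged over the genotypes it passed 4 (the same 3 and Tbxas1), against 11.6%. edgeR passed 4 in cKO (Ptgs2, Ptges, Hpgd and Tbxas1), against 7.16% of genes under edgeR, and the same 4 passed under DESeq2 (8.94% of genes) and voom (8.95%). Averaged, DESeq2 and voom each passed 5, which are the 4 above and Ptger2, against 18.1% and 15.4% of genes. The median log2 change of the 10 genes was 0.15 in cKO, against -0.07 over all genes tested, and -0.12 in Flox, against 0.10. Ptges was admitted to testing through its carrageenan libraries alone, and Ptger2 mainly through them, so calls of these genes were likely to be up. Because the 10 genes were chosen with earlier results of these data known, these counts are descriptions and not a test of the list.

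**Figure D3:**
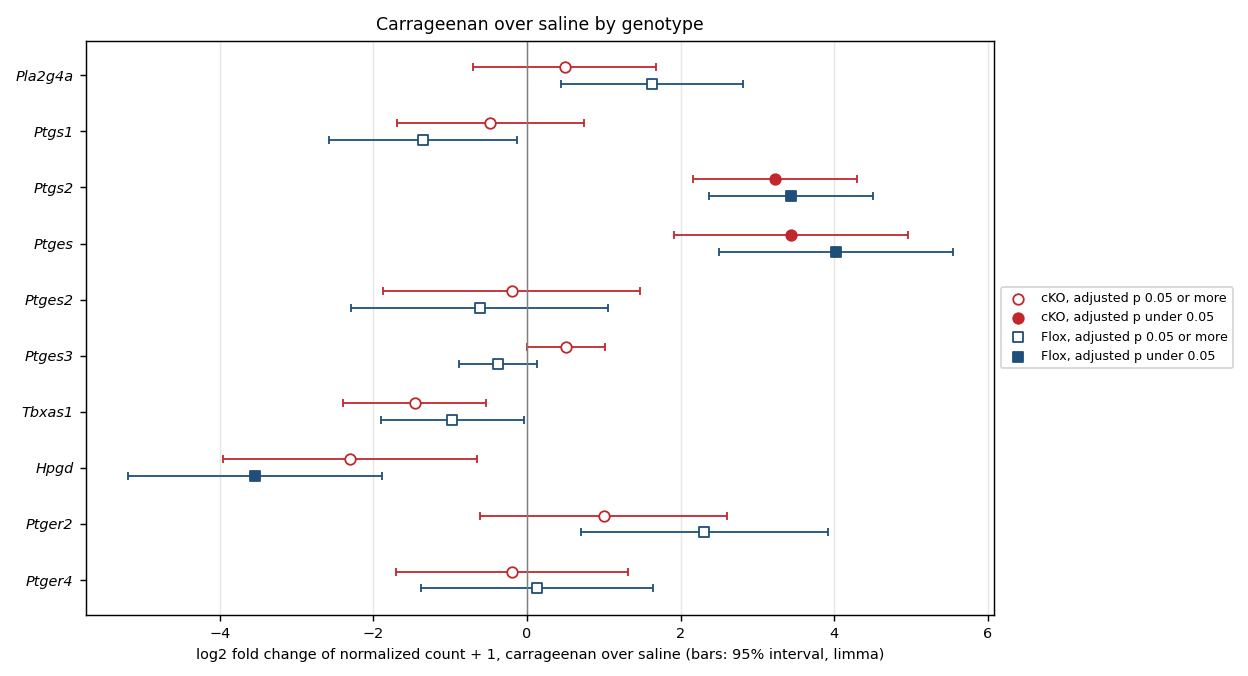
Log2 fold change of carrageenan over saline for the 10 genes in cKO (circles) and in Flox (squares), with 95% intervals from limma; filled symbols have an adjusted p under 0.05 over 10240 genes. Ptgs2 (3.23 in cKO, 3.44 in Flox) and Ptges (3.44 and 4.02) lie to the right of 0 in both genotypes, and Hpgd (-2.31 and -3.55) and Tbxas1 (-1.46 and -0.97) to the left.

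The difference between the responses of cKO and Flox mice was tested directly, since a pass in 1 genotype alone does not show that they differ. limma passed 0% of 10243 genes for this difference, with 244 at an unadjusted p under 0.05, and edgeR and DESeq2 passed 0 genes as well. The response of Ptgs2 was log2 -0.23 ± 0.71 apart (cKO minus Flox, 95% interval -1.76 to 1.29), that of Ptges -0.60 ± 1.01 (-2.76 to 1.57), that of Hpgd 1.20 ± 1.09 (-1.14 to 3.53) and that of Tbxas1 -0.51 ± 0.61 (-1.82 to 0.79). All 4 intervals include 0. With 1 library left out, the difference of Ptgs2 ran from -0.92 to 0.44, that of Hpgd from 0.053 to 1.79 and that of Tbxas1 from -0.81 to -0.28. The Hpgd difference of 0.053 came without the Flox carrageenan pool 4-7. That of Ptges was -0.014 without the Flox saline pool 1-3.

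With genotype compared within a treatment, limma passed 0% of 9151 genes after carrageenan, with 897 at an unadjusted p under 0.05, 0 passed by edgeR and 10 by DESeq2. After saline it passed 0% of 9371 genes, with 508 at an unadjusted p under 0.05, 0 passed by edgeR and 23 by DESeq2. None of the 10 genes was among those passed, but DESeq2 gave an adjusted p to 2055 of the 9151 genes after carrageenan and to 6827 of the 9371 after saline. After carrageenan 8 of the 10 (all but Ptgs2 and Ptges3) had none, Ptger4 included (unadjusted p = 0.00997, DESeq2), and after saline Ptges2 had none. After carrageenan, Ptgs2 had a mean of 364 ± 131 normalized counts in cKO and 420 ± 26.7 in Flox (SD, n = 3 each), a log2 difference of -0.26 (95% interval -0.88 to 0.36). Ptges had 38.4 ± 21.6 in cKO carrageenan and 36.7 ± 13.6 in Flox carrageenan, and its interval ran from -1.04 to 1.04. Hpgd had 16.2 ± 9.32 in cKO carrageenan and 6.79 ± 5.89 in Flox carrageenan, a log2 difference of 1.59 ± 0.96 (adjusted p = 0.541, limma), with overlapping pools. It was 0.44 without the Flox carrageenan pool 4-7, which had no Hpgd read, and 2.18 without the Flox carrageenan pool 1-3.

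Ptger4 had the smallest unadjusted p of the 10 genes between genotypes after carrageenan (0.0254, limma). It averaged 79.9 ± 44.8 in cKO carrageenan and 31.4 ± 10.8 in Flox carrageenan (SD, n = 3 each), a log2 difference of 1.21 ± 0.46 (adjusted p = 0.497, limma). Without the cKO carrageenan pool 9-12, which had 35.5 and lay inside the Flox range, the difference was 1.70 with an adjusted p of 0.0417. Over all genes that omission gave 420 passed between genotypes after carrageenan, and the pool was already known to stand apart from its group. After saline, Ptger4 averaged 83.1 ± 21.4 in cKO and 41.5 ± 33.8 in Flox, a log2 difference of 1.56 ± 0.82 (adjusted p = 0.683, limma), which was 0.48 without the Flox saline pool 1-3 and 2.26 without the Flox saline pool 4-7. In the authors' deposited table the Ptger4 difference after carrageenan was log2 1.01 (SE 0.391, p = 0.00968, adjusted p = 0.369). The authors' deposited table gave log2 -0.18 for Ptgs2 after carrageenan (adjusted p = 0.842) and -0.33 after saline (adjusted p = 0.904).

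After saline, Ptges3 was at 74.5 to 120 in cKO pools and at 145 to 183 in Flox pools, with no overlap. Its log2 difference of -0.74 ± 0.26 had an unadjusted p of 0.0208 and an adjusted p of 0.683 (limma). Ptgs2, at 27.9 to 48.2 in cKO saline and 14.1 to 96.0 in Flox saline, overlapped. Ptges and Ptger2 were below the minimum for testing after saline.

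**Figure D4:**
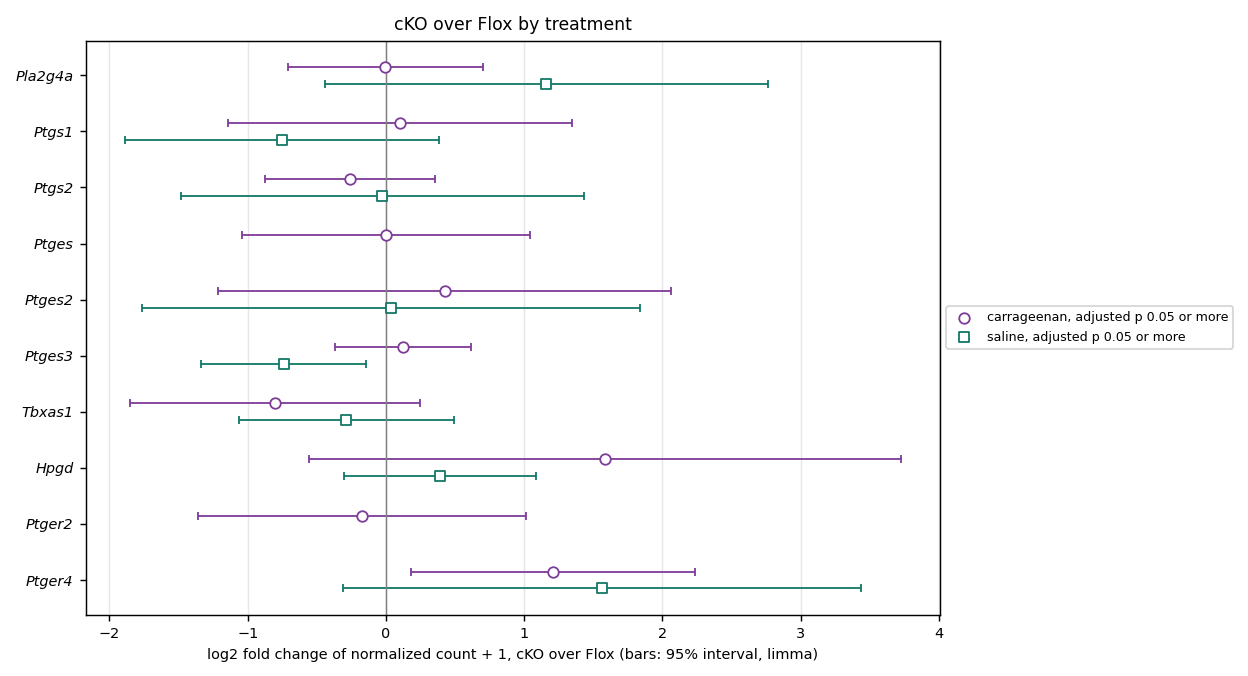
Log2 fold change of cKO over Flox for the 10 genes after carrageenan (circles) and for 8 of them after saline (squares), with 95% intervals from limma; Ptges and Ptger2 were not tested after saline. Open symbols have an adjusted p of 0.05 or more, which is all of them, and the intervals of Ptger4 after carrageenan (0.18 to 2.24) and Ptges3 after saline (-1.34 to -0.14) do not include 0.

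Of 28 other genes of prostanoid synthesis, transport, breakdown and reception, 5 had no read in any library (Ptgds, Pla2g4b, Pla2g10, Ptgdr and Ptgdr2), and 14 were abundant enough to be tested between treatments. limma passed none of the 14 in cKO (0 had an unadjusted p under 0.05, and edgeR passed 1, Fam213b). In Flox, where 6 of the 14 had an unadjusted p under 0.05, it passed Cbr1 alone, a carbonyl reductase that converts prostaglandin E2 to F2alpha. Over all genes tested limma passed 2.65% in cKO and 7.17% in Flox. Cbr1 averaged 2.39 ± 2.29 normalized counts in Flox carrageenan and 14.6 ± 1.90 in Flox saline (SD, n = 3 each, 7 and 21 reads) and fell by 2.51 ± 0.68 on the log2 scale (adjusted p = 0.0391, limma; 0.0970, edgeR). It was also lower in cKO (log2 -1.09 ± 0.68, adjusted p = 0.717) without passing. The call in Flox was lost in 8 of the 12 fits that each left out 1 library. Averaged over the genotypes limma passed 1 of the 14, which fell, against 11.6% of all genes, and 6 had an unadjusted p under 0.05. DESeq2 passed 6 averaged (18.1% of all genes) and voom 3 (15.4%). edgeR passed 4, where 834 of 10240 genes passed up and 703 down. The genes with the most reads were Pla2g15, Hpgds and Zadh2. Hpgds, the hematopoietic prostaglandin D synthase, averaged 35.2 ± 11.7 in cKO carrageenan and 52.6 ± 15.3 in cKO saline, and 33.0 ± 15.2 in Flox carrageenan and 104 ± 68.6 in Flox saline. Its changes did not pass limma (log2 -0.59 ± 0.51 in cKO, adjusted p = 0.899, and -1.50 ± 0.51 in Flox, adjusted p = 0.088). Pla2g15, a lysosomal phospholipase A2, changed by log2 -0.59 ± 0.48 in cKO and 0.19 ± 0.48 in Flox, and Zadh2, also named Ptgr3 for its prostaglandin reductase, by -0.58 ± 0.55 and -1.80 ± 0.55, none of which passed.

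Genes known to be raised by cyclic AMP, the second messenger of EP2 and EP4, were read as a list of 12. limma passed 3 in cKO, all up (Fosl2, Nr4a3 and Pde4b), and 3 in Flox, with Fosl2 and Nr4a3 up and Pde3b down, against 2.65% in cKO and 7.17% in Flox of all genes tested. The list's median log2 change was -0.05 in cKO, against -0.07 over all genes, and -0.34 in Flox, against 0.10. Fosl2, a subunit of AP-1, averaged 693 ± 38.7 normalized counts in cKO carrageenan and 244 ± 60.8 in cKO saline (SD, n = 3 each), and 761 ± 162 in Flox carrageenan and 337 ± 55.4 in Flox saline. Its log2 change was 1.53 ± 0.24 in cKO (adjusted p = 0.0036) and 1.16 ± 0.24 in Flox (adjusted p = 0.0108, limma). The nuclear receptor gene Nr4a3 rose by 1.38 ± 0.24 in cKO (adjusted p = 0.0073) and by 1.06 ± 0.24 in Flox (adjusted p = 0.0167, limma). The phosphodiesterase genes, whose enzymes degrade cyclic nucleotides, passed in opposite directions. Pde4b rose by 1.41 ± 0.31 in cKO (adjusted p = 0.0264), a call lost in 5 of the 12 fits that left out 1 library, and Pde3b fell by 2.92 ± 0.64 in Flox (adjusted p = 0.0137, limma).

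Of 21 cytokine, signalling and transcription factor genes known to act on Ptgs2, Ptges or phospholipase A2, limma passed 3 in cKO (Il1b, Nfkb1 and Myd88, all up) and 5 in Flox (Il1b, Cebpb, Myd88 and Mapkapk2 up, Mapk14 down). Of all genes tested 2.65% passed in cKO and 7.17% in Flox. The median log2 change of the 21 was 0.15 in cKO, against -0.07 over all genes, and 0.04 in Flox, against 0.10. Il1b, the interleukin-1beta gene, averaged 2058 ± 925 normalized counts in cKO carrageenan and 693 ± 175 in cKO saline, and 3035 ± 200 in Flox carrageenan and 1077 ± 307 in Flox saline (SD, n = 3 each). It rose by log2 1.50 ± 0.33 in cKO (adjusted p = 0.0243) and by 1.53 ± 0.33 in Flox (adjusted p = 0.0118, limma). Cebpb, whose product binds C/EBP motifs, rose by 1.73 ± 0.37 in Flox (adjusted p = 0.0120, limma). Mapk14, the p38alpha kinase gene, averaged 33.3 ± 12.2 in Flox carrageenan and 105 ± 36.0 in Flox saline and fell by 1.65 ± 0.37 (adjusted p = 0.0153, limma). Its substrate kinase Mapkapk2 rose by 1.19 ± 0.34 (adjusted p = 0.0466), a call lost in 10 of the 12 fits that left out 1 library. In cKO the calls of Nfkb1 and Myd88 were each lost in 7 of those fits.

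Marker genes of several cell types moved with the treatment, and their part in the prostanoid results was not tested. The summed level of 10 resident macrophage markers was 1765 to 3814 in cKO carrageenan and 6458 to 9172 in cKO saline, and 1370 to 1689 in Flox carrageenan and 5255 to 7033 in Flox saline. Of these 10 genes limma passed 4 in cKO and 8 in Flox, all down. Over all genes tested, the shares passed by limma were 2.65% in cKO, 7.17% in Flox and 11.6% averaged over the genotypes. The counts for the other cell types below stand beside the same shares. Of 10 neutrophil markers, 5 were abundant enough to be tested, and 3 passed in cKO and 4 in Flox, all up. Their sum was 121 to 608 in cKO carrageenan and 17.6 to 29.0 in cKO saline, and 272 to 611 in Flox carrageenan and 22.2 to 67.9 in Flox saline, while Ngp and Camp held no read and Ltf 1. The neutrophil markers S100a8, S100a9 and Mmp8 averaged 1.72 to 6.89 in the saline groups. They were admitted to testing mainly through their carrageenan libraries, so a call of these genes was likely to be up. Of 8 inflammatory monocyte markers, 5 rose and 1 fell in cKO and 5 rose in Flox. Their sum, which F13a1 and Fn1 also enter, was 1531 to 3974 in cKO carrageenan and 1766 to 2279 in cKO saline, and 3173 to 3430 in Flox carrageenan and 1964 to 2441 in Flox saline. The fibroblast markers, 7 in all, summed to 694 to 1061 in cKO carrageenan and 263 to 653 in cKO saline, and to 707 to 1252 in Flox carrageenan and 38.8 to 578 in Flox saline, with 0 passed in cKO (1 at an unadjusted p under 0.05, and 0 by edgeR) and 2 up in Flox. Platelets are a classical source of thromboxane. Of 8 platelet and megakaryocyte markers, Pf4 held 78593 reads over all libraries, Ppbp 370, Treml1 70, Itga2b 44, Gp9 and Gp6 1 each, and Gp1ba and Tubb1 none. Their sum was 1081 to 4195 in cKO carrageenan and 3696 to 7772 in cKO saline, and 660 to 1036 in Flox carrageenan and 2275 to 3848 in Flox saline, nearly all of it Pf4. Of the 3 abundant enough to be tested, limma passed 0 in cKO (1 at an unadjusted p under 0.05, and 0 by edgeR) and Pf4 in Flox. Pf4, the platelet factor 4 gene, averaged 872 ± 210 in Flox carrageenan and 2961 ± 814 in Flox saline (SD, n = 3 each) and fell by 1.76 ± 0.45 on the log2 scale (adjusted p = 0.0306, limma), a call lost in 4 of the 12 fits that left out 1 library. Ppbp did not fall with it, at 10.8 ± 8.33 in Flox carrageenan and 9.93 ± 7.19 in Flox saline (SD, n = 3 each). The median log2 change of the 3 tested platelet markers in Flox was 0.20, against 0.10 over all genes. Any part of platelets in the Tbxas1 values was not tested. Keratinocyte markers summed to 596 to 1030 in cKO carrageenan and 737 to 1534 in cKO saline, and to 486 to 707 in Flox carrageenan and 255 to 624 in Flox saline, with 0 of 6 passed in either genotype (limma, none at an unadjusted p under 0.05, and none by edgeR). Endothelial markers summed to 44.8 to 63.1 in cKO carrageenan and 31.3 to 66.3 in cKO saline, and to 44.5 to 74.8 in Flox carrageenan and 0 to 21.6 in Flox saline. Of the 6 endothelial markers limma passed 0 in cKO (0 at an unadjusted p under 0.05, and 0 by edgeR) and 2 in Flox (Pecam1 and Kdr, both up), where edgeR passed 0 and DESeq2 1. Dendritic cell markers summed to 219 to 299 in cKO carrageenan and 100 to 148 in cKO saline, and to 228 to 306 in Flox carrageenan and 155 to 224 in Flox saline, with 0 of the 6 tested passed by limma in either genotype (2 in cKO and 1 in Flox at an unadjusted p under 0.05). In cKO edgeR, DESeq2 and voom each passed 3 dendritic cell markers, against 7.16%, 8.94% and 8.95% of all genes. In Flox each passed 0, and averaged limma passed 2, Ccr7 and Cd209a, both up. Mast cell markers summed to 6.47 to 161 over all libraries, lymphocyte markers to at most 3.04 and eosinophil markers to at most 8.55.

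Across the 12 libraries, which fall into carrageenan and saline, the genes with the pattern most like that of each changed gene were found by Pearson's r on log2 values among 5510 named genes. For Ptgs2 these were Csf3r (r = 0.98), Nrg1, Gsr, Acod1 and Adora2b. For Ptges they were Trim30d (0.99), Jarid2, Lcn2, Slc28a2 and Tor3a. For Hpgd they were Pepd (0.99), Kank2, Gprc5b, Trim47 and Colec12, and for Tbxas1 Arhgap17 (0.95), Dctn5, Fgd2, Ifngr1 and Lyl1. All values are descriptions over n = 12 libraries that differ in treatment and depth, and genes that follow either will correlate.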

How the data were processed

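CD45+/CD11b+/Ly6G- paw cells were sequenced as 3' mRNA libraries (LUTHOR, with unique molecular identifiers), 3 pools in each of 4 groups, per the labels. The submitters' processing notes name GRCm38, STAR and cutadapt. Their versions, the read counter and the annotation used were not found there. The authors deposited 1 table per treatment with a signal, normalized counts, in which each library's reads had been divided by a size factor, within a treatment. The authors' other tables give, per the file headers, log2 fold changes of cKO over Flox, a p-value per gene and a test score; the score was not used.

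Every value was a whole multiple of 1 step per library (100%, tolerance 0.001), which gave the reads back. The main test was limma 3.58.1 (mean trend) on log2(value + 1) for genes at 5 or more in at least 3 libraries, with Benjamini-Hochberg adjustment and a threshold of 0.05. Genotypes were compared on the deposited scale within a table. Treatments and levels use 1 scale over all 12 libraries (medians of ratios over 6501 genes). Treatment changes and the difference between responses were fitted over all 12 libraries together, and genotypes over the libraries of that treatment. edgeR 4.0.16 (quasi-likelihood, TMM), DESeq2 1.42.0 and voom on the reads, other pseudocounts, filters and scales, and each library left out were alternatives. Simulated counts were run through limma and edgeR alone, for carrageenan against saline in cKO. Their planted changes lay in genes with a mean of at least 20, so they do not cover genes with few reads or the other comparisons. Entries that are not genes (121, 0.170 to 2.23% of reads) were left out. Every pair of libraries within a group was further apart than read counting alone gives (chi-square over its degrees of freedom, 2.71 to 16.3). Nothing says that pools with the same number share mice. Deviations of same-numbered saline and carrageenan pools correlated at 0.247, 0.524 and 0.611 in cKO (unlike-numbered pools at -0.544 to 0.337), and these pools were treated as paired in 1 alternative; in Flox they correlated at 0.0248, -0.0191 and 0.0862 (unlike-numbered, -0.0647 to 0.0244). All 10 genes are given for carrageenan against saline in each genotype. For the averaged change, the genotypes and the difference between responses, only some of them are given in the text. Genes of the other prostanoid list that limma passed within a genotype are named, as are the 3 with most reads. From the cyclic AMP and inducer lists, up to 4 genes with the smallest p in a genotype are named. Mapkapk2 was added after its values were seen. The members and lists were chosen with earlier results of these data known.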

Additional observations from a re-analysis of the deposited data

Results flagged for a closer look

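Ptges3 changes had opposite signs in the genotypes, and neither passed (adjusted p = 0.444 in cKO and 0.359 in Flox, limma). On the common scale the cKO carrageenan pools (125 to 150 normalized counts) all lay above the cKO saline pools (74.5 to 120), and the Flox carrageenan pools (123 to 128) all lay below the Flox saline pools (145 to 183). The difference between the responses was 0.86 ± 0.33 on the log2 scale (unadjusted p = 0.0206), which did not pass over all genes (adjusted p = 0.967, limma). On the deposited scale the cKO groups overlapped, with 122 to 144 after carrageenan and 77.4 to 126 after saline.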

How the results depend on the processing

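Depth limits Ptges, Ptges2 and Ptger2, which held 0 to 3 reads in several Flox libraries. The genes passed over the whole table ranged from 84 to 916 in cKO (271 as reported), 350 to 1078 in Flox (734), 789 to 1854 averaged (1188), 0 to 420 for genotype after carrageenan and 0 to 23 after saline. On the deposited scale the median gene changed by log2 -0.18 in cKO, against -0.07 on the common scale. Of the 10 genes, 4 passed in cKO under edgeR, DESeq2 and voom, and 1 under a mean of at least 20, which dropped Ptges. Averaged, 5 passed under DESeq2, voom and a pseudocount of 5, each with Ptger2. Leaving out 1 library gave 1 to 3 in cKO and 0 to 1 for genotype after carrageenan. With the pool number as a replicate block, the cKO count stayed at 2. In Flox the count was 4 with Pla2g4a (adjusted p = 0.0425, limma), and averaged it was 5. Same-numbered Flox pools did not deviate together, but whether they share mice is not known. Values that changed sign were all of changes that did not pass, and the cause was not tested. For genotype after carrageenan these were Pla2g4a (0.018 under DESeq2, 0.090 on the TMM scale, -0.24 to 0.17 with 1 library left out), Ptger2 (0.0058 under voom, -0.47 to 0.13), Ptges (0.090 on the TMM scale, 0.0044 with pseudocount 5, -0.41 to 0.40), Ptges2 (-0.23 under DESeq2, -0.43 under edgeR, -0.46 under voom), Ptgs1 (-0.22 to 0.51) and Ptgs2 (-0.51 to 0.010). After saline these were Ptges2 (-0.35 under DESeq2, -0.38 under edgeR, -0.065 with pseudocount 5, -0.18 under voom, -0.75 to 0.44 with 1 library left out) and Ptgs2 (0.093 on the TMM scale, -0.70 to 0.66). For the treatment these were Ptger4 in Flox (-0.47 under DESeq2, -0.48 under edgeR, -0.080 under voom, -0.92 without both libraries known to stand apart, Flox saline 1-3 and cKO carrageenan 9-12, and -0.92 to 0.82 with 1 left out), in cKO (0.29 without both, -0.60 to 0.29) and averaged (-0.56 to 0.31), and Ptges3 averaged (-0.033 on the deposited scale, -0.019 to 0.15). For the difference between responses these were Ptger4 (0.43 under DESeq2, 0.45 under edgeR, 0.019 under voom, 1.22 without both, -1.05 to 0.73), Ptges (0.064 under voom), Ptges2 (-0.053 under edgeR, -0.10 without both, -0.035 to 1.18) and Ptgs2 (0.30 under DESeq2, 0.33 under edgeR, 0.073 under voom, -0.92 to 0.44).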
